A study of Mus musculus with 6 samples.

Results

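The genes described here encode selectin ligands, adhesion glycoproteins and the enzymes that decorate them. The set was chosen by name from what the proteins do, with earlier results of these data known, and holds 8 of the 36083 genes in the table. Its members are the carriers Selplg, Cd44, Cd24a and Podxl and the glycosyltransferases Fut4, Fut7, St3gal4 and Gcnt1. RNA-seq was carried out on a mouse model of blast crisis chronic myeloid leukemia (bcCML), in which KLS cells, a bone marrow fraction enriched for blood stem cells, received the BCR-ABL and NUP98-HOXA9 oncogenes by retrovirus. The donors of these cells were WT mice (3 libraries) or Sdc1-/- mice (3 libraries), and every library carried both oncogenes. The Sdc1-/- allele is germline and interrupts the part of Sdc1 that encodes the signal peptide. Sorted cells carrying both oncogenes were transplanted into NSG recipients as the labels give them, a strain without lymphocytes that keeps its own myeloid cells, and Lin- leukemia cells were sorted from the spleens, all taken at the same time. The study's general methods for this leukemia name CD45.1 recipients instead, so the host strain rests on the labels. No source used here says that the 3 libraries of a genotype came from separate mice, and the study describes its WT libraries as technical replicates. The p-values therefore measure only the spread between these libraries.

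Selectins are lectins that catch leukocytes rolling along a vessel wall, and they recognize sialyl Lewis x, a sialylated and fucosylated sugar, displayed on a few carrier proteins. E-selectin and P-selectin sit on activated endothelium and, for P-selectin, on platelets. In blood stem cells and in leukemia cells, this system is known for its part in homing to the bone marrow.

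Values are TPM, a length-adjusted measure of transcript abundance, that the authors rescaled between libraries, and they summed to between 944973 and 1058263 per library. A gene was tested with limma on log2(value + 1) if its mean over the 6 libraries was at least 1, and was called at an adjusted p under 0.05 after Benjamini-Hochberg adjustment over all 12155 tested genes. Fold changes are libraries with the Sdc1-/- label against WT on that log2 scale, where the change of low genes is understated. The targeted gene went against its label at the mRNA level, with Sdc1 values of 1.75, 1.21 and 1.51 in WT and 3.85, 3.80 and 4.12 in libraries with the Sdc1-/- label (log2 fold change 0.99, SE 0.0929). A disrupted signal peptide need not lower the mRNA, so this measurement does not check the labels. The study checked the deletion in these mice by PCR and by staining of the protein, which was not analysed here, and directions below are given for the libraries as labelled. T cell markers targeted by the sort were near 0, with Cd3e, Cd4 and Cd8a averaging under 0.1 in both groups. Of the other T cell genes, Cd3d (0.57 in WT and 0.70 in the other group) and Trac (1.09 and 1.65) were above that. The neutrophil gene Ly6g, a target of the Gr1 antibody in the sort, was still measured at 8.77 ± 0.12 in WT (SD, n = 3) and 1.97 ± 0.23 in libraries with the Sdc1-/- label.

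Of the 8 members, 7 passed the minimum mean. Among these, 5 were lower in libraries with the Sdc1-/- label (Selplg, Cd44, Cd24a, St3gal4 and Gcnt1), 1 was higher (Podxl), and Fut7 was not called. Across all tested genes, 31.3% were called lower and 29.3% higher, so a call in either direction was common in these data. In the values as deposited, the groups did not overlap for 6 of the 7 tested members, against 66.7% of all tested genes. Overlap was not counted after scaling to equal sums. The median log2 fold change was -0.27 over the tested members and -0.0097 over all tested genes. The WT libraries summed to more than the others, and scaling each library to a sum of 1000000 moved the median of all genes up by 0.13. Under that scaling 3 members were lower (Cd24a, St3gal4 and Gcnt1) and 1 was higher, where 19.6% of all tested genes were lower and 43.5% higher. An exact permutation test on 3 libraries against 3 cannot give a p below 0.1, so the calls rest on the variance limma shares across genes.

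**Figure D1:**
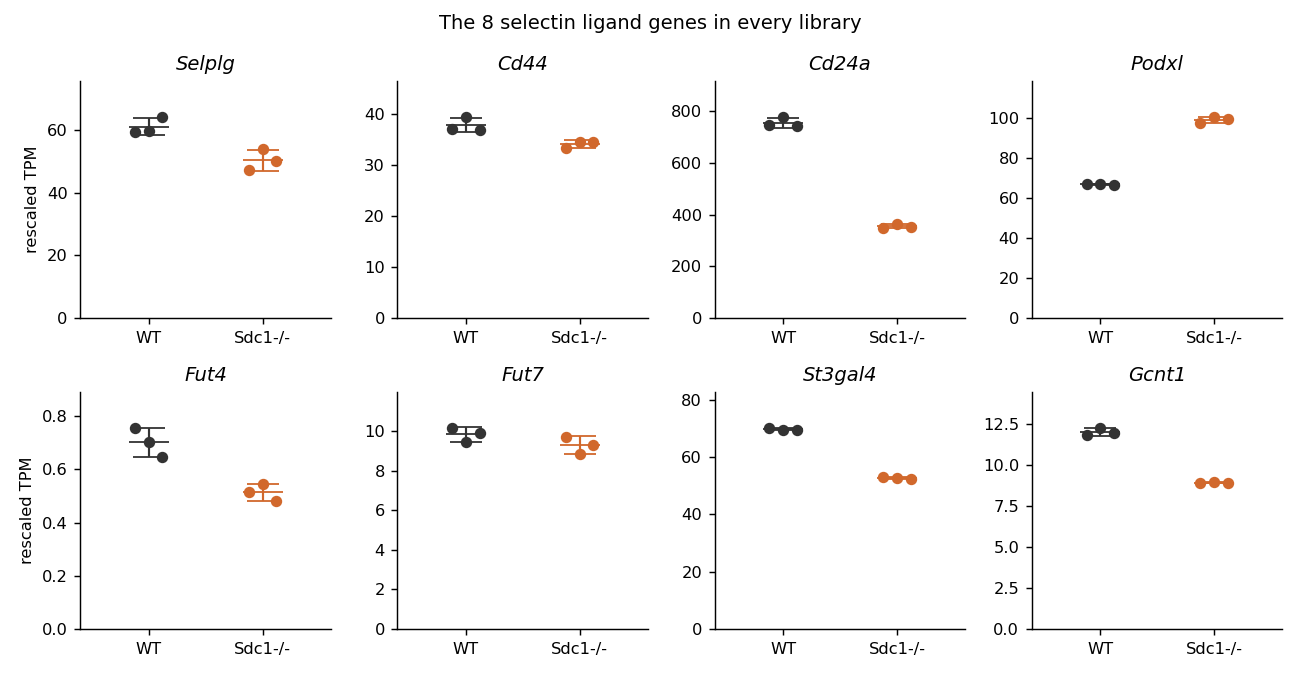
Rescaled TPM of each member in the 6 libraries, 1 panel per gene with its own axis starting at 0; points are libraries, the long horizontal line is the group mean and the error bar the SD. Cd24a, St3gal4, Gcnt1, Selplg, Cd44 and Fut4 were lower in every library with the Sdc1-/- label than in any WT library, Podxl was higher, and the groups overlapped for Fut7.

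Cd24a had both the highest level among the members and the largest change. It encodes CD24, a small mucin-like glycoprotein anchored in the membrane by a lipid, which can carry ligands of P-selectin. Its values were 745, 776 and 742 in WT and 348, 365 and 353 in libraries with the Sdc1-/- label. The lowest WT library was far above the highest of the other group. In bulk RNA a fall of this kind cannot be told apart between fewer cells that express the gene and less RNA per cell. The mean fell from 754 ± 19.1 to 355 ± 8.50 (SD, n = 3), a log2 fold change of -1.08 (SE 0.0326, 95% interval -1.16 to -1.01, adjusted p = 1.19e-06), and this put Cd24a at rank 312 from the lowest among the 12155 tested genes. In the GENCODE M21 annotation of mouse build GRCm38, Cd24a lies on chr10:43578284-43584265, on the forward strand. Of its 2548 distinct 31-base words, 4.98% also occur in other transcripts, mainly Gm6212 and Gm15352, which had means of 0.0867 and 0.0756 and are named here after their values were seen.

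Podxl was the member that rose. It encodes podocalyxin, a large sialomucin related to CD34 that can be decorated to bind selectins. Values were 67.1, 67.2 and 66.7 in WT and 97.4, 100.4 and 99.5 in libraries with the Sdc1-/- label. The WT libraries lay within 1 unit of one another, and all libraries of the other group were higher. The mean rose from 67.0 ± 0.23 to 99.1 ± 1.55 (SD, n = 3), a log2 fold change of 0.56 (SE 0.0278, adjusted p = 7.53e-06), and 0.70 after scaling to equal sums. Podxl lies on the reverse strand at chr6:31519488-31563981 and shares no 31-base word with any other gene. Podocalyxin is also known in endothelium and platelets. Of 7 endothelial genes, Cdh5, Kdr and Cldn5 averaged under 0.1 in both groups. Tek was under the minimum at 0.089 ± 0.015 in WT and 0.36 ± 0.12 in the other group, without overlap. Without the minimum its log2 fold change was 0.31 (SE 0.0620, adjusted p = 0.0132). Of the 3 tested, the abundant Egfl7 (130.4 ± 11.3 to 92.0 ± 5.23) and Pecam1 (15.3 ± 0.62 to 12.9 ± 0.077) were lower, and Tie1 (0.94 ± 0.16 to 4.24 ± 0.19) was higher. After scaling to equal sums, 1 of the 3 was higher and 1 lower. The summed megakaryocyte and platelet list of 8 genes covered 509 to 537 in WT and 521 to 534 in libraries with the Sdc1-/- label. Of its 7 tested genes, 5 were lower and 2 higher, the latter being Pf4 (265.8 ± 4.14 to 305.4 ± 14.4) and Vwf (4.14 ± 0.66 to 14.8 ± 0.66). At equal sums this list had 3 lower and 2 higher. Over all tested genes, 31.3% were lower and 29.3% higher as deposited, and 19.6% and 43.5% at equal sums. The study's general gating for primary bcCML also requires the surface markers of both oncogene vectors. The part of endothelial cells, megakaryocytes and platelets in the Podxl result was not tested.

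Selplg and Cd44 changed by small amounts, and both calls depended on the scaling. Selplg encodes PSGL-1, the main ligand of P-selectin on leukocytes, and was measured at 59.2, 59.7 and 64.0 in WT and 47.2, 53.7 and 50.04 in libraries with the Sdc1-/- label. As deposited, every WT library was above every library of the other group. The log2 fold change was -0.27 (SE 0.0556, adjusted p = 0.00456), and -0.13 (adjusted p = 0.0878) after scaling to equal sums. Cd44 encodes the hyaluronan receptor that becomes the E-selectin ligand HCELL once it is sialylated and fucosylated. Its values were 37.0, 39.3 and 36.8 in WT and 33.2, 34.5 and 34.4 in libraries with the Sdc1-/- label, without overlap as deposited. The log2 fold change was -0.14 (SE 0.0389, adjusted p = 0.0156), whereas it was 0.00085 (adjusted p = 0.99) after scaling to equal sums, so the direction for Cd44 turned with the scaling. Selplg lies at chr5:113818536-113832644 and Cd44 at chr2:102811141-102901665, both on the reverse strand. Among the 4232 words of Selplg, 4.04% occur in other transcripts, spread over 2018 genes that include Terf1 with a mean of 14.95 and Rfc2 with a mean of 256, both named after their values were seen.

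Because Podxl rose while Cd24a fell, the make-up of the 4 carrier transcripts shifted. These shares were computed after the values were seen, carry no test and do not depend on the scaling of a library. Cd24a made up 82.0% ± 0.40 of the summed carrier TPM in WT and 65.9% ± 0.23 in libraries with the Sdc1-/- label (SD, n = 3). The share of Podxl went from 7.28% ± 0.14 to 18.4% ± 0.22. Those of Selplg and Cd44 went from 6.63% ± 0.37 to 9.34% ± 0.37 and from 4.10% ± 0.063 to 6.32% ± 0.079, so both took a larger share of a smaller carrier pool even though their own values were lower. With 1 added to each value, the log2 ratio of Selplg to Cd44 was 0.66, 0.59 and 0.78 in WT and 0.49, 0.62 and 0.53 in the other group. These groups overlapped, with a difference of -0.13 (2-sided exact permutation p = 0.2).

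**Figure D2:**
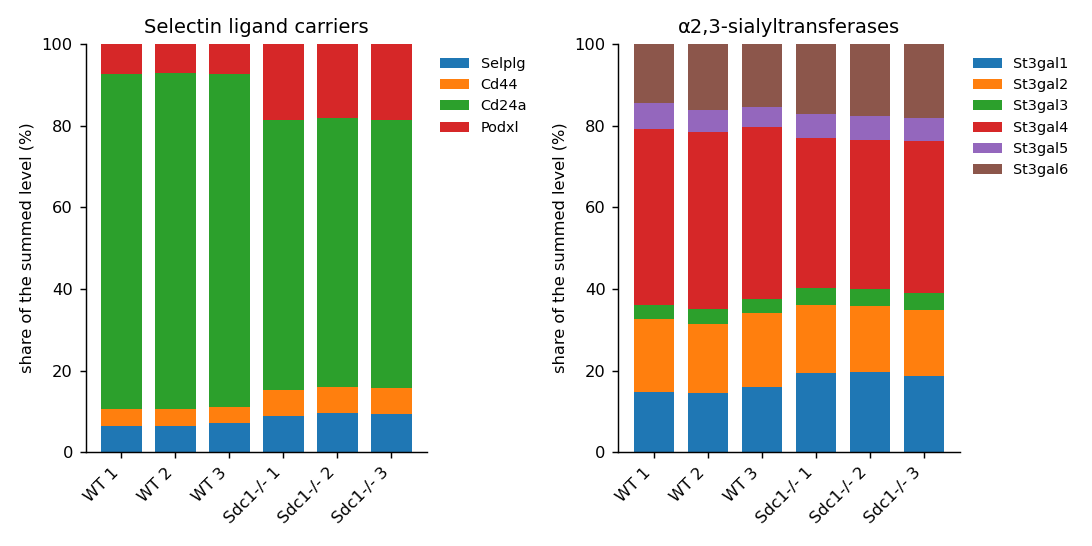
Stacked bars of the percent of summed rescaled TPM, 1 bar per library, for the 4 carriers (left) and for the 6 alpha-2,3-sialyltransferases (right). Cd24a took 82.0% of the carrier sum on average in WT and 65.9% in the other group, while St3gal4 took 42.8% and 36.9% of the sialyltransferase sum.

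The terminal sugars of sialyl Lewis x are added by St3gal4, a sialyltransferase that caps galactose, and by Fut7 and Fut4, fucosyltransferases that act after and, for Fut4, largely without sialylation. St3gal4 was measured at 70.2, 69.6 and 69.5 in WT and 53.1, 52.7 and 52.5 in libraries with the Sdc1-/- label. Both groups were tight and lay well apart. The mean fell by 24.4%, from 69.8 ± 0.38 to 52.7 ± 0.30 (SD, n = 3), a log2 fold change of -0.40 (SE 0.0273, adjusted p = 2.74e-05), and -0.25 after scaling to equal sums. St3gal4 lies on the reverse strand at chr9:35046576-35119268. The antisense gene 4930581F22Rik overlaps 412 of its exonic bases on the other strand, and 12.1% of the words of St3gal4 occur in other genes, 340 of these 348 words in that antisense gene. The strand setting of the quantification is not given in the sources used here, so reads of both strands over those bases cannot be told apart.

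The fucosyltransferases differed in level more than between genotypes. Fut7 was measured at 10.2, 9.42 and 9.92 in WT and 9.71, 8.82 and 9.31 in libraries with the Sdc1-/- label. The groups overlapped. The log2 fold change of Fut7 was -0.075 (95% interval -0.20 to 0.048, adjusted p = 0.25), and 0.059 (adjusted p = 0.35) after scaling to equal sums, so neither a direction nor the absence of a small change was shown. Fut4 stood at 0.76, 0.70 and 0.65 in WT and 0.52, 0.54 and 0.48 in libraries with the Sdc1-/- label. Its mean over all libraries, 0.61, was under the minimum. Without the minimum its log2 fold change was -0.17 (SE 0.0416, adjusted p = 0.0280), where 16.6% of all genes tested that way were lower. In WT the mean of Fut7 was 13.995 times that of Fut4 on the length-adjusted TPM scale. With 1 added to each value, the log2 ratio of Fut7 to Fut4 was 2.67, 2.61 and 2.73 in WT and 2.82, 2.67 and 2.80 in the other group. These groups overlapped, with a difference of 0.094 (2-sided exact permutation p = 0.2). As the mean of Fut4 was under 1, the added 1 pulls this ratio down, and the difference was larger at smaller pseudocounts. Fut9, which can also build Lewis x structures, was at 0 in all libraries. Fut7 made up 93.3% ± 0.47 of the summed Fut4, Fut7 and Fut9 values in WT and 94.7% ± 0.49 in the other group, without overlap. Fut7 lies at chr2:25423267-25426374 on the forward strand, and the single exon of Fut4 at chr9:14748320-14752393 on the reverse strand.

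Gcnt1 makes the core 2 branch of O-glycans, the arm on which sialyl Lewis x is displayed on PSGL-1. It was measured at 11.8, 12.3 and 11.95 in WT and 8.91, 8.97 and 8.92 in libraries with the Sdc1-/- label, a clear gap between groups. The mean fell by 25.7%, from 12.02 ± 0.23 to 8.93 ± 0.033 (SD, n = 3), a log2 fold change of -0.39 (SE 0.0393, adjusted p = 1.63e-04), and -0.25 after scaling to equal sums. Gcnt1 lies at chr19:17326141-17372844 on the reverse strand.

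**Figure D3:**
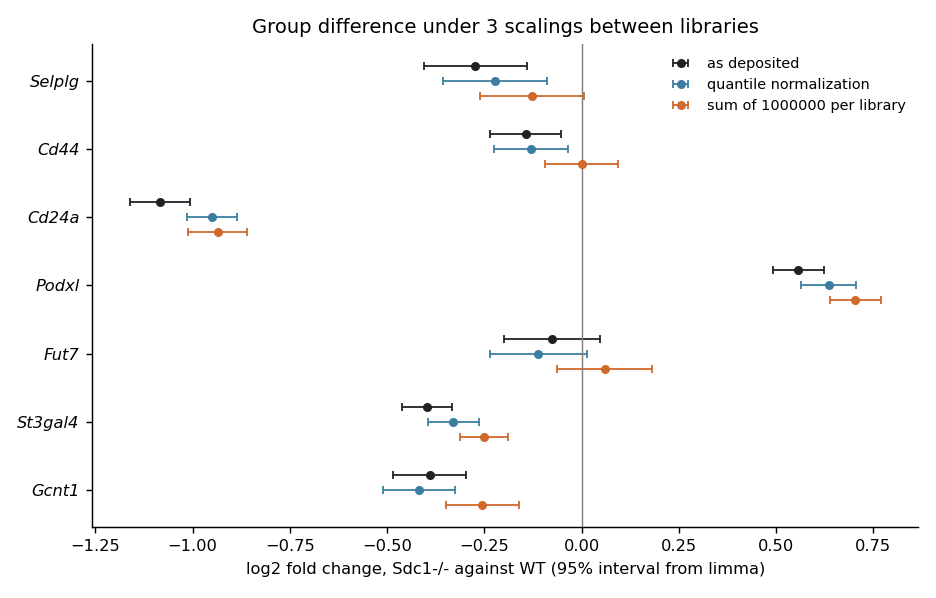
Log2 fold change (Sdc1-/- label against WT, rescaled TPM plus 1) of the 7 tested members, with 95% intervals from limma as bars, as deposited, after quantile normalization and after scaling each library to a sum of 1000000. Cd24a, St3gal4 and Gcnt1 lay below 0 and Podxl above 0 under all 3, whereas Cd44 went from -0.14 as deposited to 0.00085 at equal sums.

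The sequences in front of the enzyme genes are shown for 1 enzyme that was not called and 2 that fell by like amounts. RefSeq promoter windows on GRCm38.p6, 250 bases before to 50 bases after a transcript start, were matched by symbol for 5 of the 8 members (Cd44, Fut4, Fut7, St3gal4 and Gcnt1), 8 windows in all. They were searched on both strands for the motif of RUNX factors, spelled TGTGGT, of ETS factors, spelled GGAAGT, of C/EBP factors, spelled TTGCNNAA, of GATA factors, spelled AGATAA, and for the E-box, spelled CACGTG. Capitals mark a motif or its reverse complement, and the sequences read 5′ to 3′ on the strand of the gene. The Fut7 window is chr2:25422992-25423291 on the forward strand, the Gcnt1 window chr19:17356618-17356917 and the St3gal4 window chr9:35116815-35117114, both on the reverse strand.
Fut7: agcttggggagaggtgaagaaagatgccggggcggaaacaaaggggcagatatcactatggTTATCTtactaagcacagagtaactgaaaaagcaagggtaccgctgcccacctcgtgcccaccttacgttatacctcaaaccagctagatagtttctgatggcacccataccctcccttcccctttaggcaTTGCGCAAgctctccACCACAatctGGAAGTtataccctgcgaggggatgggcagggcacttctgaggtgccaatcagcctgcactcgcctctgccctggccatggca
Gcnt1: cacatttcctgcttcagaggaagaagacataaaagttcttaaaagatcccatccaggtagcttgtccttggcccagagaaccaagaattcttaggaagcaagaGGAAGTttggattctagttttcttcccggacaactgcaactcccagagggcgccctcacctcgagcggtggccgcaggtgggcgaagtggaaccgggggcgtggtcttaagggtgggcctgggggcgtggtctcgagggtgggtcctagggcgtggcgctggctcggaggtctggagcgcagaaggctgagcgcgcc
St3gal4: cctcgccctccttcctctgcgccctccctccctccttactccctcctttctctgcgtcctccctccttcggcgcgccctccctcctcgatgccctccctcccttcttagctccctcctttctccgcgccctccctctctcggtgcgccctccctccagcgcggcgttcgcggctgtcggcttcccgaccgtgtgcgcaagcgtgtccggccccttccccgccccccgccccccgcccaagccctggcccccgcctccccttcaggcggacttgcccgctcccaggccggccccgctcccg
The Fut7 window held 1 match each to GATA, C/EBP, RUNX and ETS, in this order, and the last 3 lay close together. The Gcnt1 window held 1 ETS match and the St3gal4 window none. Of the 5 windows not printed, that of Cd44 held 1 GATA match, another of Gcnt1 held 1 ETS match, and those of Fut4, a second start of Fut7 and a further start of Gcnt1 held none. Among all 32851 windows of the same length, 16.8% held the RUNX motif, 23.8% ETS, 10.8% C/EBP, 11.2% GATA and 7.15% the E-box, so each single match is common. A match is a description of the letters and was not related to the values.

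In WT the members ranked Cd24a, St3gal4, Podxl, Selplg, Cd44, Gcnt1, Fut7 and Fut4 by mean TPM, and no neighbours in this order overlapped between libraries. The mean of Cd24a was 10.8 times that of St3gal4. In libraries with the Sdc1-/- label the order was Cd24a, Podxl, St3gal4, Selplg, Cd44, Fut7, Gcnt1 and Fut4. There St3gal4 overlapped Selplg and Fut7 overlapped Gcnt1, so neither pair could be ordered. Podxl passed St3gal4, and Gcnt1 lost its lead over Fut7.

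Likeness in pattern was measured by Pearson's r on log2 values over the 6 libraries, among 8965 tested genes with a mean of at least 5. The libraries fall into their genotype groups, so r over them mostly reflects which group is higher and is a description only. For Cd24a, 537 genes exceeded r = 0.99, led by Havcr2 and Stfa2l1. St3gal4 had 611 such genes, led by Gab2 and Lcn2, Gcnt1 had 481, led by Nucb2 and Spink2, and Podxl had 470, led by Ehd3 and Rbm6. For Cd44 there were 12, led by Tax1bp1 and Commd3. No gene exceeded r = 0.99 for Selplg or Fut7. The closest were Timm29 and Tfdp2 for Selplg (r = 0.98996 and 0.98783) and Tst and Rab11b for Fut7 (0.98183 and 0.98135).

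Transcripts of the endothelial and platelet selectins were low in these cells. Selp, for P-selectin, overlapped between groups at 2.12, 2.08 and 2.48 against 2.26, 1.95 and 2.83 (adjusted p = 0.74). Sele, for E-selectin, was under the minimum at 0.44 ± 0.083 and 0.14 ± 0.013 (SD, n = 3), without overlap. Without the minimum, its log2 fold change was -0.33 (SE 0.0451, adjusted p = 0.00337).

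Cd24a is also known from maturing myeloid and erythroid cells. All 12 genes of the neutrophil marker list were lower in libraries with the Sdc1-/- label, with a median log2 fold change of -1.66, and their summed level was 13256 to 14190 in WT and 4758 to 4896 in the other group. Of 8 monocyte genes, 6 were tested, 5 were lower and 1 was higher, with sums of 47.5 to 49.7 and 24.7 to 25.6. Of 8 erythroid genes 6 were lower and 2 higher, with sums of 9510 to 10215 and 5287 to 5690. The early progenitor genes ran differently, with 3 of 6 higher and 1 lower and sums of 528 to 535 and 569 to 578. After scaling to equal sums, 5 of them were higher and 1 lower. The shares over all tested genes were 31.3% lower and 29.3% higher as deposited, and 19.6% and 43.5% at equal sums. The 7 T cell genes summed to 1.30 to 2.49 in WT and 2.24 to 2.79 in the other group, and the 6 B cell genes to 2.14 to 2.79 and 1.97 to 2.61, with 5 genes of each list averaging under 0.1. The 7 endothelial genes summed to 136 to 158 and 103 to 113. The lineage antibodies of the sort included TER119, against erythroid cells, and CD11b and Gr1, against myeloid cells, and the marker RNA above was measured after that sort. The part of mature cells in the member results was not tested.

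**Figure D4:**
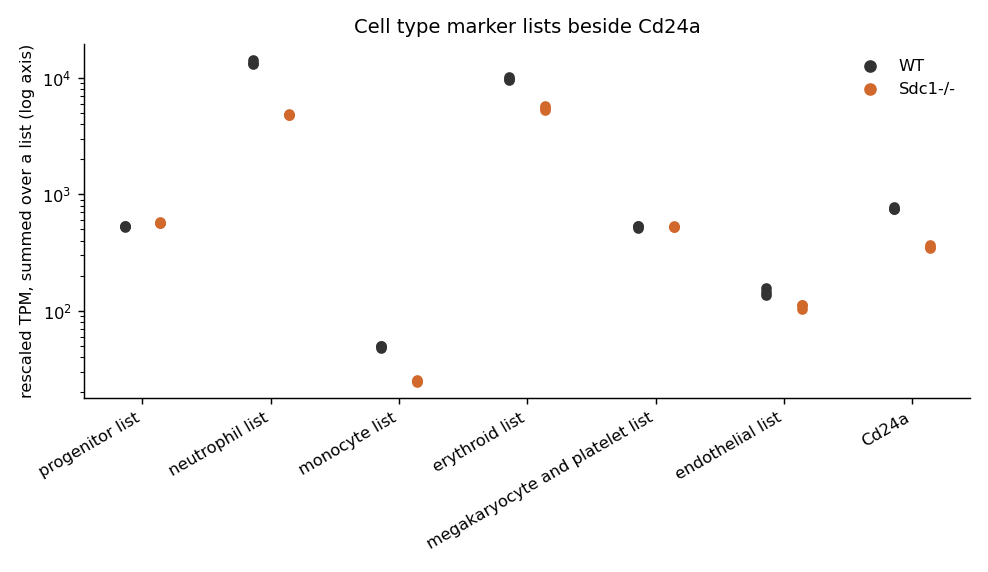
Rescaled TPM on a log axis, summed over each of 6 cell type marker lists, and that of Cd24a alone; each point is a library, dark for WT and orange for the Sdc1-/- label. The neutrophil sum was 13256 to 14190 in WT and 4758 to 4896 in the other group, and the megakaryocyte and platelet sums overlapped.

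The rest of the pathway was described over 77 other genes in 12 lists, of which 57 were tested. Of these, 15 were higher (26.3%) and 20 lower (35.1%), close to the shares over all tested genes, and the median log2 fold change was -0.044. After scaling to equal sums, 26 were higher and 13 lower, so the balance of directions turned with the scaling. Over all tested genes, 31.3% were lower and 29.3% higher as deposited, and 19.6% and 43.5% at equal sums. The counts of each list below stand beside these shares and were not tested against them.

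Among 7 other carriers of selectin ligands, 3 were tested and all 3 were lower, and 1 was lower after scaling to equal sums. Glg1, the E-selectin ligand ESL-1, went from 16.5 ± 0.65 to 12.5 ± 0.17 (log2 fold change -0.38, adjusted p = 2.89e-04). Cd34, the sialomucin related to podocalyxin, was at 47.4 ± 2.06 and 39.9 ± 0.71 (-0.24, adjusted p = 0.00191), and its call was lost after scaling to equal sums (-0.095, adjusted p = 0.0683). Spn, for the leukosialin CD43, was the most abundant at 268.7 ± 1.24 and 251.6 ± 3.24, and its log2 fold change of -0.094 (adjusted p = 0.0162) became 0.054 after scaling to equal sums and 0.0032 after quantile normalization.

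The donor sugar of Fut4 and Fut7 was followed through its own genes. Of the 6 genes that make or transport GDP-fucose, 4 were lower, and 1 after scaling to equal sums. Gmds, the dehydratase that starts its synthesis, went from 47.8 to 40.1 (log2 fold change -0.25, adjusted p = 7.35e-04), and Tsta3, which completes it, from 56.3 to 48.4 (-0.22, adjusted p = 0.0172). Slc35c2, a Golgi transporter tied to fucosylation, had -0.14, but 0.0093 after scaling to equal sums. Of 8 fucosyltransferases outside the set, 5 were tested, 4 were higher and 1 was lower. At equal sums, 4 were higher and 0 lower. Fut8, for core fucose on N-glycans, went from 129.9 to 157.1 (0.27, adjusted p = 7.46e-04), Pofut2, for O-fucose on thrombospondin repeats, from 10.1 to 14.6 (0.49), and Fut10 from 2.13 to 4.01 (0.68).

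St3gal4 was set against the other sialyltransferases of its linkage. All 5 were tested, 1 was lower and none was called higher, though 3 were higher after scaling to equal sums. St3gal2 went from 28.6 to 23.3 (log2 fold change -0.29, adjusted p = 0.00171). St3gal1, which caps core 1 O-glycans, stood at 24.6 and 27.4 (0.15, adjusted p = 0.0510), and St3gal6, which can also make sialyl Lewis x precursors and is named here after its values were seen, at 25.0 and 25.2 (adjusted p = 0.88). The share of St3gal4 in the summed values of all 6 went from 42.8% ± 0.69 to 36.9% ± 0.30 (SD, n = 3). Of 5 genes for CMP-sialic acid, 2 were higher and 1 lower, including the synthetase Cmas (72.0 to 57.2, -0.33, adjusted p = 1.76e-04) and the Golgi transporter Slc35a1 (15.4 to 19.3, 0.31, adjusted p = 0.00997). Nans, the sialic acid synthase, was not called (0.058, adjusted p = 0.24). It was called higher after scaling to equal sums (0.205, adjusted p = 0.00302) and after quantile normalization (0.13, adjusted p = 0.0281). At equal sums, 3 of the 5 genes were higher and 1 lower.

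On the O-glycan route that Gcnt1 extends, 2 of 4 core 1 and core 2 genes were tested. C1galt1c1, the chaperone that core 1 synthesis needs, went from 15.7 to 12.2 (log2 fold change -0.34, adjusted p = 9.67e-04), whereas the synthase C1galt1 was not called (-0.062, adjusted p = 0.56, and 0.075 after scaling to equal sums). Of the 9 GalNAc-transferases that start these chains, 3 were higher and 1 was lower. After scaling to equal sums, 6 were higher and 1 was lower. The abundant Galnt1 went from 120.4 to 99.03 (-0.28, adjusted p = 0.00200), and the lower Galnt6, Galnt10 and Galnt12 had log2 fold changes of 0.45, 0.60 and 0.63.

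Lactosamine chains, the backbone that Fut7 and St3gal4 act on, gave the largest changes among the enzyme lists. Of 9 genes 7 were tested, 4 were lower and 2 higher, the median log2 fold change was -0.50, with the same counts after scaling to equal sums. B4galt1, the main galactosyltransferase of these chains, went from 50.2 ± 1.16 to 28.2 ± 1.66 (-0.81, adjusted p = 1.41e-05). B3gnt2, which adds the alternating GlcNAc, went from 31.7 ± 5.47 to 16.7 ± 4.86 (-0.91, SE 0.221, adjusted p = 0.00990), with a wide spread between libraries. B4galt4, a related galactosyltransferase, went the other way, from 4.59 ± 0.24 to 10.3 ± 0.27 (1.02, adjusted p = 8.43e-06).

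Sulfation of tyrosine in PSGL-1 is needed for P-selectin to bind it. Of 8 sulfation genes 5 were tested, 1 was higher and 2 lower. After scaling to equal sums, 3 were higher and 1 lower. Tpst2, the more abundant tyrosine sulfotransferase, stood at 47.0 in both groups (log2 fold change 0.0023, adjusted p = 0.97). It was called higher after scaling to equal sums (0.15, adjusted p = 0.0388), and Tpst1 went from 6.59 to 8.16 (0.27, adjusted p = 0.00417). Papss2, which makes the sulfate donor, went from 6.09 to 3.46 (-0.67, adjusted p = 2.19e-04). The more abundant Papss1 also makes this donor and is named here after its values were seen. It stood at 14.6 in WT and 15.6 in the other group and was not called (0.096, adjusted p = 0.25), though it was higher at equal sums. The transporter of the donor, Slc35b2, had -0.12 (adjusted p = 0.0283), but 0.026 after scaling to equal sums.

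The linkers that tie PSGL-1, CD44 and podocalyxin to actin were tested for 4 of 5 genes, with 2 higher and 1 lower. At equal sums, 3 were higher and 1 lower. Msn, for moesin, went from 191.4 to 157.9 (log2 fold change -0.28, adjusted p = 1.27e-04). Slc9a3r1, for the podocalyxin partner NHERF1, went from 70.5 to 84.3 (0.26, adjusted p = 0.00252). Rdx, for radixin, had 0.18 (adjusted p = 0.0456), a call held in 8 of 15 settings of the fit, and Ezr, for ezrin, had -0.0083 (adjusted p = 0.82), which became 0.14 (adjusted p = 0.00508) after scaling to equal sums. Of 8 genes for hyaluronan, the sugar that CD44 binds, 4 were tested and 1 was higher. This was Hmmr, a hyaluronan receptor known mostly for its part in the mitotic spindle, at 18.1 and 25.2 (0.46, adjusted p = 2.60e-04). Hyal2, Hyal3 and Cemip2 were not called, with log2 fold changes of -0.11, -0.044 and 0.18, and the first 2 changed sign after scaling to equal sums, to 0.030 and 0.072. Cemip2 was called higher in 3 of 14 settings of the fit, and 2 genes of this list were higher at equal sums.

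**Figure D5:**
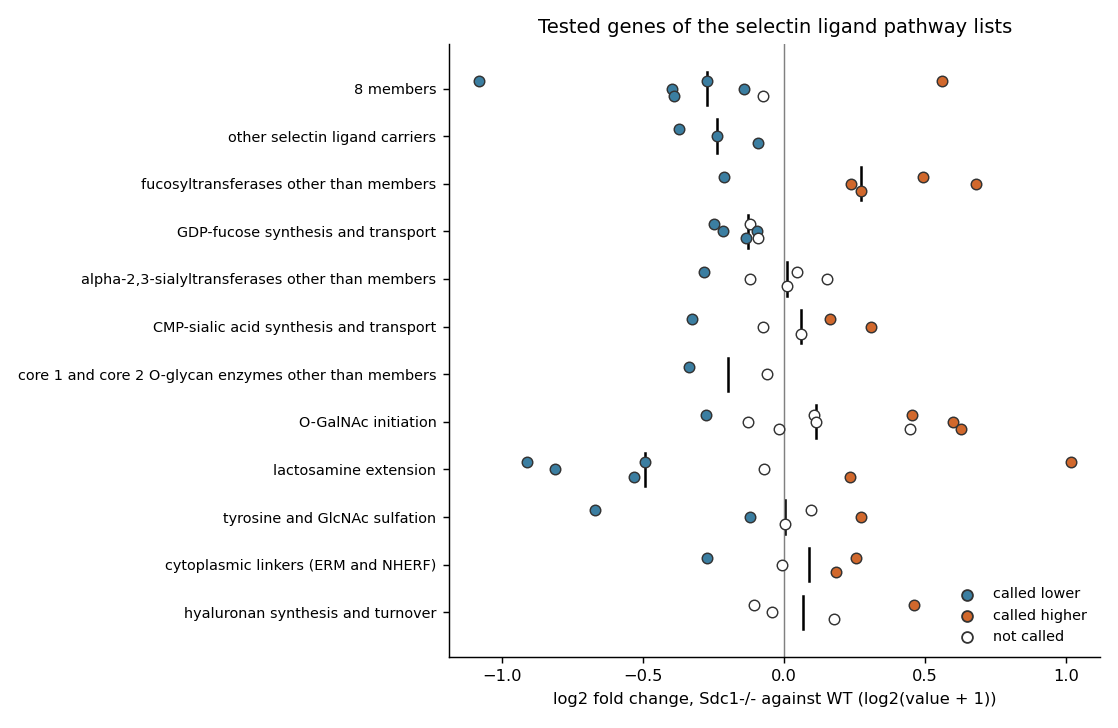
Log2 fold change (Sdc1-/- label against WT, rescaled TPM plus 1) of every tested gene among the members and in 11 of the pathway lists, 1 point per gene, blue where called lower, orange where called higher and white where not called, with vertical ticks at the medians. Points lie on both sides of 0 in most lists, and the lactosamine list spans B3gnt2 at -0.91 to B4galt4 at 1.02.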

How the data were processed

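RNA (150 ng) was sequenced from stranded mRNA libraries with single reads of 75 bases. The authors deposited a gene-level signal, TPM from kallisto rescaled between libraries, and the submitters' processing notes name sleuth 0.30.0 and mm10. The transcriptome release and strand setting are not given in the sources used here, and raw counts were not used here, so read depth is unknown. The values were treated as rescaled TPM, since their sums differ from 1000000. A table of the authors' own comparison (p-values, q-values, effect sizes and variances) was not used.

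Columns were assigned to libraries by label. Of 36083 genes, 11369 were at 0 in all 6 libraries. Log2(value + 1) of genes with a mean of at least 1 was fitted with limma 3.58.1 (R 4.3.3; 2 groups, variance trend) and adjusted by the Benjamini-Hochberg method, after a test on simulated data. Log2 ratios of 2 genes, with 1 added to each value, were compared by exact 2-sided permutation of libraries. Named genes were the members, Sdc1, the selectins and, from each other list, all tested genes if at most 4, otherwise the 2 with the highest mean and the 2 with the largest change, and for each tested member the 2 genes most like it; some genes are not reported here. The members and all lists were chosen with earlier results of these data known. Alternatives were other pseudocounts, minimum means, scalings and variance settings, a replicate block and leaving out each library. Transcript words came from GENCODE M21, promoters from RefSeq.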

Additional observations from a re-analysis of the deposited data

How the results depend on the processing

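Cd24a, Podxl, St3gal4 and Gcnt1 kept their direction and call under all 15 settings of the fit. Scaling to a sum of 1000000 per library had the largest effect. It left 3 members lower, ended the call of Selplg (-0.13) and turned Cd44 (0.00085) and Fut7 (0.059), and it gave 26 higher and 13 lower among the other pathway genes and 2380 lower among all genes. It also turned Spn (0.054), Slc35c2 (0.0093), C1galt1 (0.075), Slc35b2 (0.026), Ezr (0.14), Hyal2 (0.030) and Hyal3 (0.072). Among the genes that became called higher under it were Nans (0.205, adjusted p = 0.00302), St3gal1 (0.30, adjusted p = 0.00311), Tpst2 (0.15, adjusted p = 0.0388), Ezr and Cemip2. Quantile normalization turned Spn (0.0032) and Ezr (0.063). The log2 ratio of Fut7 to Fut4 differed between groups by 0.094 as reported, by 0.17 under that scaling, and by 0.30 and 0.17 at pseudocounts of 0.1 and 0.5. The shift of the median under the scaling is by construction, and other causes were not tested.

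With each library left out in turn, 5 members stayed lower and 1 higher, and all genes gave 3106 to 3368 higher and 3369 to 3594 lower. Some weak calls rested on single libraries: Spn lost its call without WT 3 or Sdc1-/- 3, Tsta3 without WT 1 or Sdc1-/- 2 or 3, Slc35b2 without WT 1 or 3 or Sdc1-/- 1 or 3, and Rdx without any library but Sdc1-/- 1. Over all 15 settings these were called in 10, 11, 7 and 8. Uncalled genes changed sign within these ranges, namely Selp (-0.056 to 0.13), C1galt1 (-0.13 to 0.0022), Tpst2 (-0.042 to 0.038), Ezr (-0.023 to 0.0060), Hyal2 (-0.20 to 0.047) and Hyal3 (-0.079 to 0.0046).

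Deviations of same-numbered libraries correlated at 0.15, -0.0083 and 0.018, and those of differently numbered libraries at -0.16 to 0.14. These values neither show nor exclude a pairing by replicate number. With the number as a replicate block, 3653 genes were higher and 3971 lower, 5 members were lower and 1 was higher, and among the named genes Slc35b2 (adjusted p = 0.0523) lost its call. For B3gnt2 the SE was 0.0739 with the block and 0.221 without it. Precision is limited by 3 libraries per group and by unknown depth, which weighs most on Fut4 and Sele.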
